A study of Mus musculus with 384 samples.

Results

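*Fscn1* encodes fascin, a protein that crosslinks actin filaments into tight parallel bundles. It was 1 of 69 assays in a targeted RNA sequencing table of the mouse brain, and its single row was taken by its gene symbol. The row held a value in 380 of 384 samples, namely 12 region labels of 32 male Balb/c mice, with frozen tissue punches taken per region. The mice fell into 4 label groups of 8, named Co naive, Co inject, MS naive and MS inject, each mouse giving at most 1 sample per region. The labels do not say what MS, Co or the injection stand for. They give an age of postnatal day 9, whereas the study's methods describe adult mice that had met early-life adversity or early handling and later a supportive female or social defeat. These conditions were not matched to the label groups. All groups shared the strain and the sex. Among the regions the labels name Pit, where the methods name the nucleus accumbens, and the other 11 names have a counterpart in the methods.

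Fascin bundles fill filopodia, the finger-like protrusions of growth cones and migrating cells, and stiffen them so that they can push the membrane forward. Phosphorylation by protein kinase C loosens its hold on actin. Fascin is known in the nervous system from outgrowing neurites and dendrites, and the gene is also a known target of beta-catenin signalling in epithelial tumours. The regions sampled include fields of the hippocampus and the dentate gyrus, which holds neurons born after birth, and regions of the stress response such as the prefrontal cortex (PFC), the paraventricular nucleus (PVN), the amygdala (AMY) and the nearby bed nucleus (BNST).

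*Fscn1* (ENSMUSG00000029581.14) is a plus-strand gene of chromosome 5, spanning 142960343 to 142973185 in the mouse build GRCm38, and the transcript of the assay, NM_007984, has 5 exons and a coding length of 1479 bases. The assay identifier ends in the numbers 3 and 4. The sources used here do not state their meaning. In 68 of 68 assays matched to the annotation the paired numbers were neighbours that followed the strand of the gene, and in 66 they stayed within the exon count when exons were numbered from 0. Other ways of numbering were not counted, so the 66 do not decide where the numbering starts. If the identifier gave the exon numbers directly, the *Fscn1* assay would span exons 3 and 4. With exons numbered from 0, the *Fscn1* assay would span the junction of exons 4 and 5, which is coding on both sides. The 25 bases to each side of that junction, at chr5:142970661-142970685 and chr5:142971896-142971920, are shown because the measured level would rest on this short stretch alone, with exon 5 in capitals and the sequence taken from the GENCODE transcript.
Fscn1 exon 4 to exon 5: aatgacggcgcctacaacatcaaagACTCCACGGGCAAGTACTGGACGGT

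The values are reads divided by a size factor of each library, called normalized reads below. The libraries held 12898 to 261007 reads over all assays, with a median of 139846, and 2 held fewer than 30000. *Fscn1* itself had 27 to 1131 reads per sample (median 288.5), so that no sample was at 0. Counting error alone would give a coefficient of variation (CV) of 6.39% in the median group of region and label. The observed CV within the 48 groups was 17.9 to 93.2%, with a median of 44.1%, and it exceeded the counting error in 48 of 48. None of the 43 region and cell type markers on the list used here was among the assays, so the region labels could not be checked against markers. In tissue punches, fewer cells of a type and less RNA per cell cannot be told apart.

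In 6 of the 12 regions the samples did not form 1 population, and this bears on every comparison of regions below. In Pit, the dorsal dentate gyrus (dDG) and the ventral dentate gyrus (vDG), *Anxa2*, which encodes the membrane- and actin-binding protein annexin A2, was either over or under 1000 with no sample near that value. In the cerebellum (CER), dorsal CA3 (dCA3) and ventral CA3 (vCA3), *Ociad2*, which encodes a mitochondrial protein, was either over or under 1200. The samples with *Anxa2* over 1000 numbered 16 in Pit, 8 in dDG and 7 in vDG, and those with *Ociad2* under 1200 numbered 8 in CER, 8 in dCA3 and 16 in vCA3. Each label group held 8 of the former, except Co naive with 7, and 8 of the latter. According to the methods, each library plate held samples of 3 regions. Which regions shared a plate is not given, so a difference of tissue and a difference of plate position or sample identity cannot be told apart here. The order of the regions and their contrasts are therefore given with all samples and, as an analysis added after the data were seen, without the 63 samples with *Anxa2* over 1000 or *Ociad2* under 1200.

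*Fscn1* was detected in every region, and its regional medians spanned 164 to 453 normalized reads. The lowest median was that of Pit, at 164 (21.9 to 721, n = 32). The next 3 were vCA3 at 177 (55.5 to 571, n = 32), dCA3 at 205 (41.3 to 579, n = 32) and CER at 228 (60.5 to 398, n = 32). Then came a step up to a set of regions with similar levels.

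PFC and BNST both had a median of 342, with ranges of 149 to 767 (n = 32) and 113 to 715 (n = 31). Ventral CA1 (vCA1) followed at 344 (133 to 611, n = 32), AMY at 373 (131 to 711, n = 32) and dorsal CA1 (dCA1) at 381 (105 to 668, n = 32). The highest medians were those of dDG at 395 (35.9 to 626, n = 32), PVN at 452 (169 to 675, n = 30) and vDG at 453 (38.7 to 886, n = 31). The ranges of all 12 regions overlapped, and the highest value in Pit lay above the highest in PVN. The CV was 84.4% in Pit, 65.9% in vCA3 and 58.2% in dCA3, against 33.7% in vCA1 and 34.2% in PVN. Within Pit it was 44.9% in the samples with *Anxa2* over 1000 and 35.6% in the others.

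**Figure D1:**
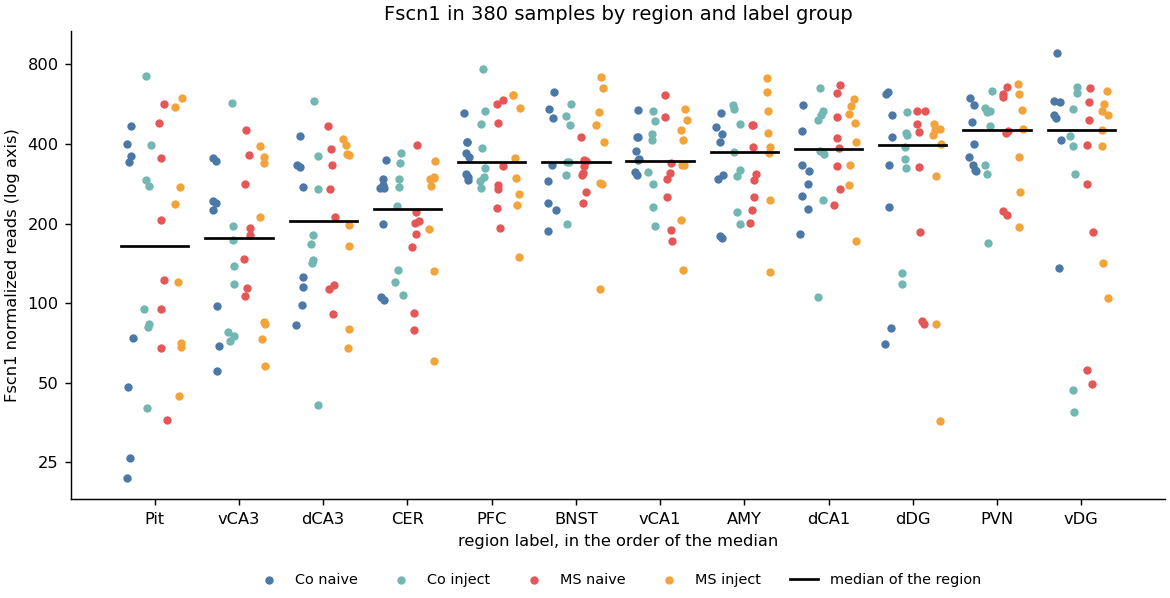
*Fscn1* in normalized reads on a log axis for each of 380 samples, by region label in the order of the median and coloured by label group, with a bar at the median of each region. The medians rise from 164 in Pit to 453 in vDG, the 4 label groups overlap in every region, and Pit, dDG and vDG each hold a lower set of samples.

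With the mouse as a block, the regions differed in *Fscn1* (F = 9.85, adjusted p = 3.18e-15), as they did in 97.1% of the 69 genes. In size of F, *Fscn1* was number 34 of 69. Of the 66 pairwise contrasts of regions, 33 were called at an adjusted p under 0.1, which is 50%, beside 51.2% over the contrasts of all genes. The median gene had 36 called contrasts. The regional difference of *Fscn1* was thus near the middle of the genes assayed.

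The called contrasts are laid out here by the order of the *Fscn1* medians, so their direction was largely given by that choice. All 32 contrasts between the 4 regions with the lowest medians (Pit, vCA3, dCA3 and CER) and the other 8 regions were called, with *Fscn1* lower in the former by 0.44 to 1.41 on the log2 scale, or 1.36- to 2.66-fold. The largest was Pit below PVN (1.41 ± 0.22 SE, adjusted p = 1.23e-08) and the smallest CER below dDG (0.44 ± 0.22, adjusted p = 0.0910). Among the remaining 34 contrasts only dDG below PVN was called (0.58 ± 0.22, adjusted p = 0.0241). Log2 differences are of normalized reads plus 1.

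Of the 11 pairs of neighbours in the order of the medians, 2 were called, beside 45.7% of the same contrasts over all genes. The order was that of *Fscn1* itself, so its neighbours were bound to lie close. The share over all genes is thus no yardstick for it. The 2 called pairs were CER to PFC (0.83 ± 0.22, adjusted p = 0.000748) and dDG to PVN. The other 9 pairs did not differ beyond their spread at this threshold. For vCA3 above Pit the difference was 0.09 with a 95% interval of -0.35 to 0.52, and for vDG against PVN it was -0.39 with an interval of -0.83 to 0.06. The mean of vDG on the log2 scale was thus below that of PVN although its median was slightly higher. After rescaling of all libraries to the same total, 1 of the 11 pairs was called. This rescaling shifted the median of all genes by up to 0.34 on the log2 scale between regions, and by over 0.1 in 41 of 66 contrasts.

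Within AMY, BNST, PFC, PVN, dCA1 and vCA1, fitted alone, no difference of *Fscn1* between regions was called. The F-test gave F = 0.948 (adjusted p = 0.601) and limma called 0 of 15 contrasts, of which 0 had an unadjusted p under 0.05. The share of contrasts called over all genes in this fit is not given here. The largest difference among them was 0.28 on the log2 scale, PVN over vCA1 (adjusted p = 0.246). The fit over all regions also called 0 of these 15. All called contrasts of regions therefore involved at least 1 of the 6 regions in which *Anxa2* or *Ociad2* split the samples.

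In Pit, dDG and vDG, *Fscn1* was low wherever *Anxa2* was high. Since both were measured in the same libraries, this is a description without a test. In the 31 samples with *Anxa2* over 1000, *Fscn1* was 21.9 to 142, with a median of 74.0. In the 64 samples with *Anxa2* under 1000 it was 185 to 886, with a median of 447. These ranges did not overlap, together or in any of the 3 regions, and the ratio of the medians was 6.04. Of the 68 genes other than *Anxa2*, 2 had ranges without overlap, *Fscn1* and *Tmem176a*, which encodes a transmembrane protein, or 2.94%. By the size of the mean log2 difference *Fscn1* was number 9 of 68. The *Anxa2* values nearest to 1000 were 298 below and 1901 above.

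The low samples of Pit were spread evenly over the label groups. Those of Co naive had 21.9, 26.1, 48.3 and 74.0 normalized reads of *Fscn1*, and those of Co inject 40.2, 81.1, 83.4 and 95.1. Those of MS naive had 36.2, 67.7, 95.0 and 122, and those of MS inject 44.7, 68.5, 70.6 and 120. Every one of these 16 lay under the lowest of the other 16 Pit samples, which was 206.

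The other 16 Pit samples were 206 to 721. In Co naive they were 342, 360, 399 and 468, and in Co inject 278, 292, 395 and 721. In MS naive they were 206, 355, 481 and 566, and in MS inject 237, 275, 553 and 599. Their median was 377, beside 69.6 for the samples with *Anxa2* over 1000.

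In dDG the 8 low samples were 70.2 and 80.8 in Co naive, 118 and 130 in Co inject, 83.5 and 85.6 in MS naive, and 35.9 and 83.2 in MS inject. The other 24 dDG samples were 185 to 626 with a median of 436. In vDG the low samples were 136 in Co naive, 38.7 and 46.9 in Co inject, 49.4 and 56.1 in MS naive, and 104 and 142 in MS inject. The other 24 vDG samples were 185 to 886 with a median of 515. The ratio of medians was 9.17 in vDG, where it rests on 7 low samples, 5.43 in Pit and 5.23 in dDG, whereas the interval between the sides was narrowest in vDG (142 to 185).

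Over the 3 regions, the libraries with *Anxa2* over 1000 held 100875 to 227241 reads in all, beside 83896 to 261007 in the others, and 27 to 217 reads of *Fscn1*, beside 218 to 1131. In dDG the depth did not overlap, as the 8 libraries with high *Anxa2* held 175072 to 227241 reads and the other 24 held 90772 to 164858. The part of depth in the result was not tested. Of the 32 mice, 9 had no sample with *Anxa2* over 1000, 16 had 1, 6 had 2 and 1 had 3. The log2 difference of the means was 2.63 with the authors' normalization, while that of the median gene was -0.27, and after rescaling to the same total these were 2.77 and -0.15.

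In CER, dCA3 and vCA3, *Fscn1* was lower where *Ociad2* was under 1200, but the sides overlapped. With *Ociad2* under 1200 (32 samples) it was 41.3 to 243 with a median of 91.5. With *Ociad2* over 1200 (64 samples) it was 98.2 to 579 with a median of 278, which gives a ratio of medians of 3.04. Of the 32 samples 14 lay over the lowest of the 64, and of the 64 samples 25 lay under the highest of the 32. A complete separation was seen in 1.47% of 68 genes, that is in the sialyltransferase gene *St6galnac4* alone. This too is a description without a test.

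In CER the sides did not overlap with the authors' normalization, but did so in CPM (reads scaled to the total of each library), where those with low *Ociad2* reached 1338 and the others began at 1013. Its 8 samples with low *Ociad2* had *Fscn1* at 102 and 106 in Co naive, 107 and 120 in Co inject, 79.0 and 92.0 in MS naive, and 60.5 and 133 in MS inject. The highest of these, 132.9, lay just under the lowest of the other 24 CER samples, 133.1, whose median was 275. In dCA3 the 8 samples were 41.3 to 181 (median 87.0) and the other 24 were 98.2 to 579 (median 301), with 3 and 7 of them in the overlap. In vCA3, where the sides had 16 samples each, they were 55.5 to 243 (median 84.5) and 118 to 571 (median 310), with 4 and 7 in the overlap. Of 24 mice with both sides, 20 had *Fscn1* lower in each sample with low *Ociad2*. The log2 difference of the means was 1.46, and 1.09 after rescaling.

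**Figure D2:**
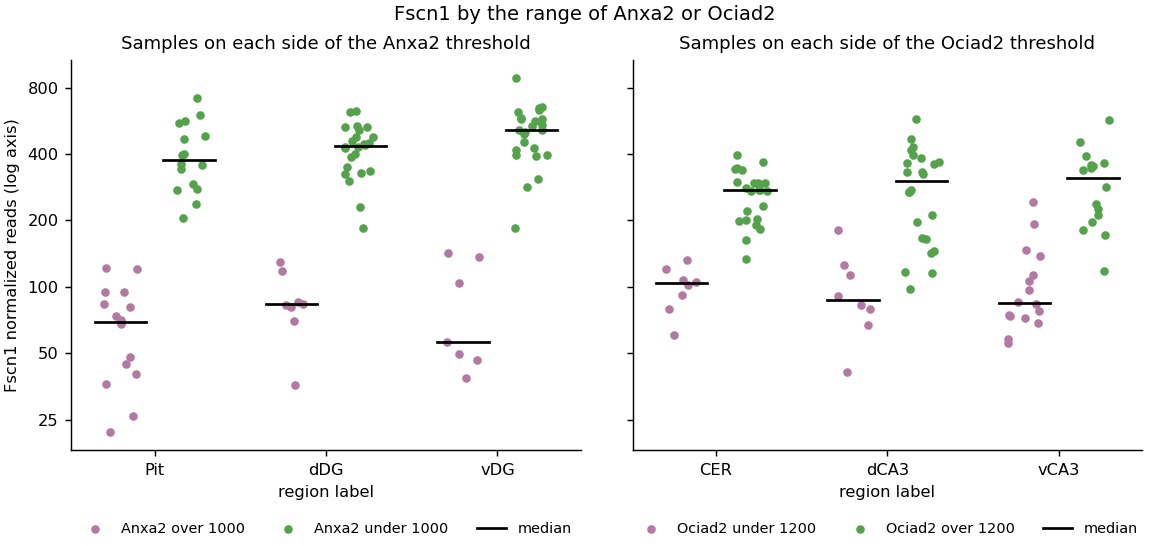
*Fscn1* in normalized reads on a log axis for each sample of 6 regions, split by *Anxa2* at 1000 (left) or by *Ociad2* at 1200 (right), with bars at the medians. In the left panel no sample with *Anxa2* over 1000 exceeds 142 and none of the others is below 185, whereas in the right panel the sides overlap in dCA3 and vCA3 and nearly meet in CER (132.9 and 133.1), where they overlap in CPM.

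Left out together, these 63 samples changed the order of the regions. The medians of the remaining samples ran from 275 in CER, 301 in dCA3 and 310 in vCA3 to 436 in dDG, 452 in PVN and 515 in vDG. Pit moved from the lowest median to 377, between AMY and dCA1. The limma contrasts then numbered 29 of 66 called (F = 5.80, adjusted p = 3.19e-08), of which 21 were also among the 33 with all samples. The share called over all genes in this fit is not given here, so the 29 cannot be set against it. CER, dCA3 and vCA3 took part in 24 of the 29, with *Fscn1* lower there than in the partner region. The other 5 placed vDG above AMY, BNST, dCA1, PFC and vCA1, for example above AMY by 0.50 ± 0.15 (adjusted p = 0.00329). The samples left out of vDG all had less *Fscn1* than those kept. The choice of samples thus favoured this direction, and the p-value does not allow for it. With all samples the differences of vDG from these 5 regions were instead -0.11 (vCA1) to -0.21 (dCA1), and none was called. Pit was below 8 regions with all samples, and 0 of these contrasts were called without the 63 samples. Pit was then above CER, dCA3 and vCA3, by 0.60, 0.60 and 0.49. The samples left out of Pit were likewise its lowest in *Fscn1*, so this order rests largely on which samples were kept.

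Over all samples, region accounted for 22.6% of the variation of log2 *Fscn1*, the mouse for 7.11% and the remainder for 70.3%. For the median gene, region and mouse accounted for 22.5% and 6.20%. Region together with the side of *Anxa2* or *Ociad2* accounted for 68.6%, beside 36.8% for the median gene, which placed *Fscn1* number 7 of 69. These shares are descriptions, as the sides come from the same libraries.

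The label groups were compared within each region to ask whether status (MS or Co), injection (inject or naive) or their combination went with a change of *Fscn1*. No region was called for any of the 3 terms. By status, the log2 difference (MS minus Co) ran from -0.25 in vDG to 0.25 in dCA1, with 6 regions on each side of 0 and a lowest adjusted p of 0.796 from limma. The vDG value was -0.10 with the side of *Anxa2* as a covariate. By injection, the difference (inject minus naive) ran from -0.34 in vCA3 to 0.22 in Pit, with a lowest adjusted p of 0.725. For the interaction, which is the injection difference in MS less that in Co, the values ran from -0.45 in Pit to 1.39 in vDG, with a lowest adjusted p of 0.639. Of the 36 tests, 0 had an unadjusted p under 0.05. Over all genes and regions, 0% of tests were called by status, 0.121% by injection and 0% by the interaction.

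The intervals show what these data could resolve. In vCA1, the region with the smallest error, the 95% interval of the status difference was -0.57 to 0.23, and in Pit it was -0.86 to 1.29. With the side of *Anxa2* or *Ociad2* as a covariate the standard errors in the 6 regions were 1.37 to 2.59 times smaller. The status interval in Pit then was -0.23 to 0.66, and 0 of 18 tests in these regions were called, of which 1 had an unadjusted p under 0.05.

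That test was the interaction in vDG. Over all samples of vDG the median was 516 in Co naive (136 to 886, n = 7), 411 in Co inject (38.7 to 657, n = 8), 340 in MS naive (49.4 to 648, n = 8) and 483 in MS inject (104 to 633, n = 8). By the medians inject was lower than naive in Co and higher in MS, and all 4 ranges overlapped. The interaction was 1.39 ± 0.90 (adjusted p = 0.639) without a covariate and 1.10 ± 0.35 (95% interval 0.39 to 1.81, adjusted p = 0.114) with the side of *Anxa2* as a covariate. Over 10 settings the adjusted p ran from 0.000489 to 0.997, and only the setting with 5 principal components of the residuals passed 0.1. Those components were drawn from the residuals themselves, so they leave the estimate at 1.39 and lower only its error.

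Among the 24 vDG samples with *Anxa2* under 1000, the Co naive values were 415, 503, 516, 575, 583 and 886. The Co inject values were 307, 394, 428, 542, 623 and 657. The MS naive values were 185, 283, 397, 491, 575 and 648, and those of MS inject 394, 453, 514, 534, 567 and 633. Each of these 4 groups of 6 overlapped the other 3, and the widest spread was that of MS naive. From the log2 means of these 24 samples the interaction was 0.61, without a test, and thus smaller than the 1.10 of the fit with the covariate. In the 7 samples with *Anxa2* over 1000, of which 1 was Co naive, it was 2.85. Among these 7, the MS inject sample with 142 of *Fscn1* stood apart with 21258 of *Anxa2*.

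**Figure D3:**
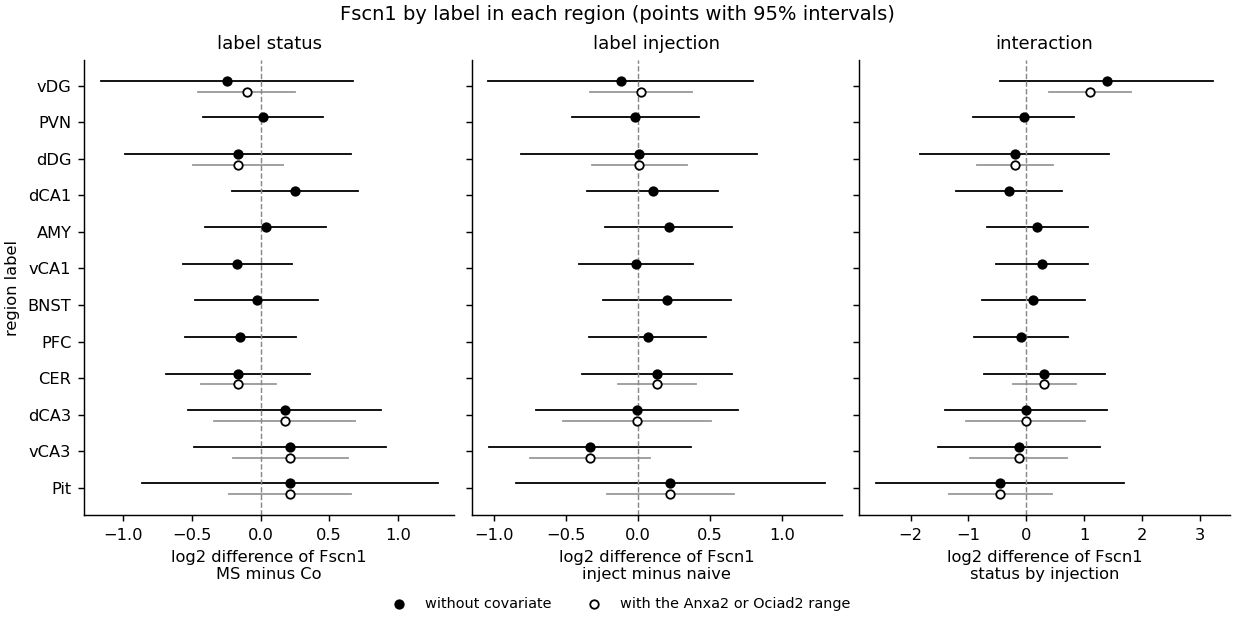
Log2 difference of *Fscn1* by label status, label injection and their interaction in each region, as points with 95% intervals, without a covariate (filled) and with the *Anxa2* or *Ociad2* side as a covariate in 6 regions (open). The 36 intervals without a covariate include 0, and with the covariate only the vDG interaction (0.39 to 1.81) does not.

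The label terms also did not differ between regions at the threshold used. The F-test of region by status gave F = 0.304 (adjusted p = 0.9997) and that of region by injection F = 0.243 (adjusted p = 0.99998), and 0% of genes were called for either. Without the 63 samples the F-values were 0.680 (adjusted p = 0.995) and 0.192 (adjusted p = 0.999).

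Because samples of a mouse are not independent, the label groups were also compared over 32 mice, each with its mean log2 deviation from the region means. The status difference was 0.0020 ± 0.097 (95% interval -0.20 to 0.20, adjusted p = 0.984), the injection difference 0.038 ± 0.097 (-0.16 to 0.23, adjusted p = 0.981) and the interaction 0.081 ± 0.193 (-0.31 to 0.47, adjusted p = 0.998). None was called, beside 0%, 1.45% and 0% of all genes.

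The mice themselves ran from -0.52 to 0.51. The medians of the label groups were 0.10 in Co naive, -0.09 in Co inject, -0.10 in MS naive and -0.02 in MS inject, and each group had mice above and below 0. The lowest mouse had 4 samples with high *Anxa2* or low *Ociad2* and the highest had 0. Without such samples the values ran from -0.38 to 0.45, and both extremes were Co inject mice.

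**Figure D4:**
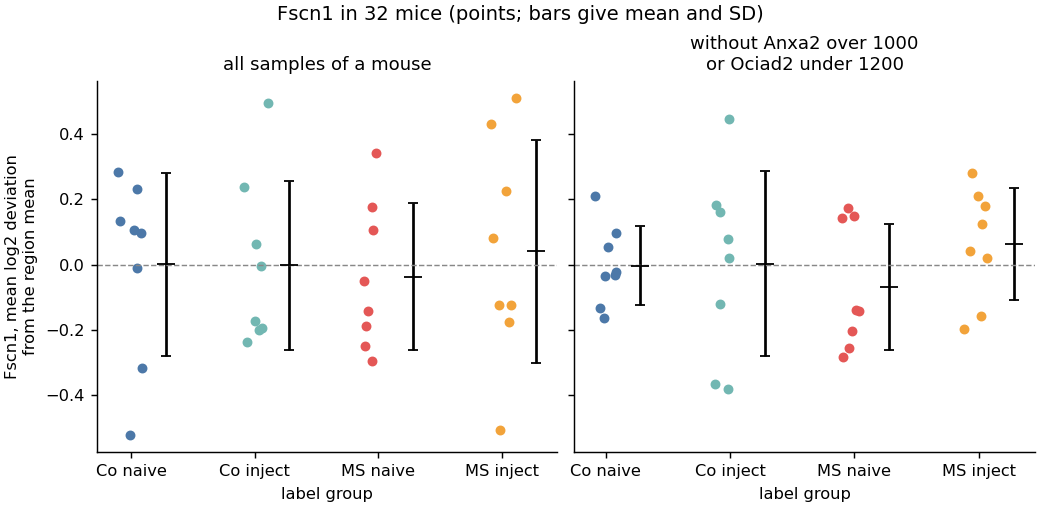
Mean log2 deviation of *Fscn1* from the region mean in each of 32 mice by label group, with the mean and SD of each group of 8, for all samples (left) and without samples with *Anxa2* over 1000 or *Ociad2* under 1200 (right). The 4 groups overlap in both panels, and the range narrows from -0.52 to 0.51 on the left to -0.38 to 0.45 on the right.

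Of the 25 genes on a list of actin and adhesion genes, 6 were among the assays, *Fscn1* included. The list was drawn up with earlier results of these data known. The other 5 were called between regions by the F-test, with 22 to 46 of 66 contrasts each, and in 0 of 180 tests by label. Beside them, 97.1% of all genes were called by the F-test, the median gene had 36 called contrasts, and at most 0.121% of the tests by label were called over all genes. *Cd47*, which encodes the integrin-associated receptor for thrombospondin, had 46 called contrasts, and *Thbs1*, which encodes thrombospondin 1, had 40. *Anxa2* had 36, *Spag9*, which encodes a scaffold of JNK signalling and vesicle transport, had 26, and *Ctnnb1*, which encodes beta-catenin, had 22. With its 33, *Fscn1* stood between *Spag9* and *Anxa2*.

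On the *Anxa2* sides, *Thbs1* moved opposite to *Fscn1*. It was 50.5 to 373 (median 171) with *Anxa2* over 1000 and 0 to 53.3 (median 16.8) with *Anxa2* under 1000. *Spag9* had the direction of *Fscn1*, with medians of 485 and 991 and overlapping ranges (283 to 913 and 672 to 1582). So did *Cd47*, with medians of 5718 and 7383, and *Ctnnb1*, with medians of 4171 and 4791. On the *Ociad2* sides *Cd47* and *Spag9* ran against *Fscn1*, with medians of 8779 and 980 where *Ociad2* was under 1200 and 5538 and 760 where it was over. So did *Thbs1*, with medians of 42.6 under and 17.9 over, and by little *Anxa2* (284 and 274). *Ctnnb1* had the direction of *Fscn1* (4769 and 4900). The ranges of each of these genes overlapped between the sides.

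Of the 9 genes on a list of signalling genes, drawn up in the same way, 5 were among the assays, and *Ctnnb1* stands on both lists. *Akt1*, a kinase of growth factor signalling, had 47 called contrasts of regions, and *Nedd4* and *Nedd4l*, both ubiquitin ligases, had 49 and 42. *Mknk2*, a kinase of the translation factor eIF4E, had 42. No test by label was called in these 5 genes, in 0 of 180, with the lowest adjusted p of 0.1005 in *Nedd4*. The same background applies, with 36 called contrasts in the median gene and at most 0.121% of label tests called. *Nedd4l* was lower with *Anxa2* over 1000 (400 to 1289, median 778) than under 1000 (1067 to 3722, median 2388), as *Fscn1* was, while *Nedd4* was higher (median 1905 beside 1244). *Akt1* was lower (median 2152 beside 2955) and *Mknk2* higher (97.9 beside 78.3). Protein kinase C genes were on the list and not among the assays.

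Of 62 genes with a median of at least 10, the 3 most like *Fscn1* over 380 samples were *Fth1* (Pearson's r = 0.71), which encodes the ferritin heavy chain, *Slc6a15* (0.66), a transporter of neutral amino acids, and *Hsp90aa1* (0.49), a heat shock protein. The lowest r were those of *Gart* (-0.65), an enzyme of purine synthesis, and *Anxa2* (-0.63). The median absolute r was 0.20. The samples share mice and regions, so these are descriptions.

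The likeness was weaker in the 6 regions that were not divided by *Anxa2* or *Ociad2*. Over the 189 samples of AMY, BNST, PFC, PVN, dCA1 and vCA1, r was 0.46 for *Fth1*, 0.23 for *Slc6a15*, 0.20 for *Hsp90aa1*, -0.21 for *Gart* and -0.19 for *Anxa2*. With *Anxa2* over 1000, *Slc6a15* was 16.6 to 800 (median 48.6) and *Gart* 251 to 864 (median 575). With *Anxa2* under 1000 they were 286 to 953 (median 522) and 124 to 368 (median 205). On the *Ociad2* sides *Slc6a15* ran against *Fscn1*, with a median of 427 under 1200 and 366 over it. Within regions the median r was 0.71 for *Fth1* (-0.15 to 0.96 over the 12 regions), 0.38 for *Slc6a15* and 0.24 for *Hsp90aa1*. After removal of the means of region and side, r was 0.55, 0.41 and 0.47 for these genes, beside a median absolute r of 0.28 over all genes compared. By that last measure the highest r of all genes was that of *Psmb3*, a proteasome subunit (0.55), and the lowest that of *Cul2*, a ubiquitin ligase scaffold (-0.54).

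**Figure D5:**
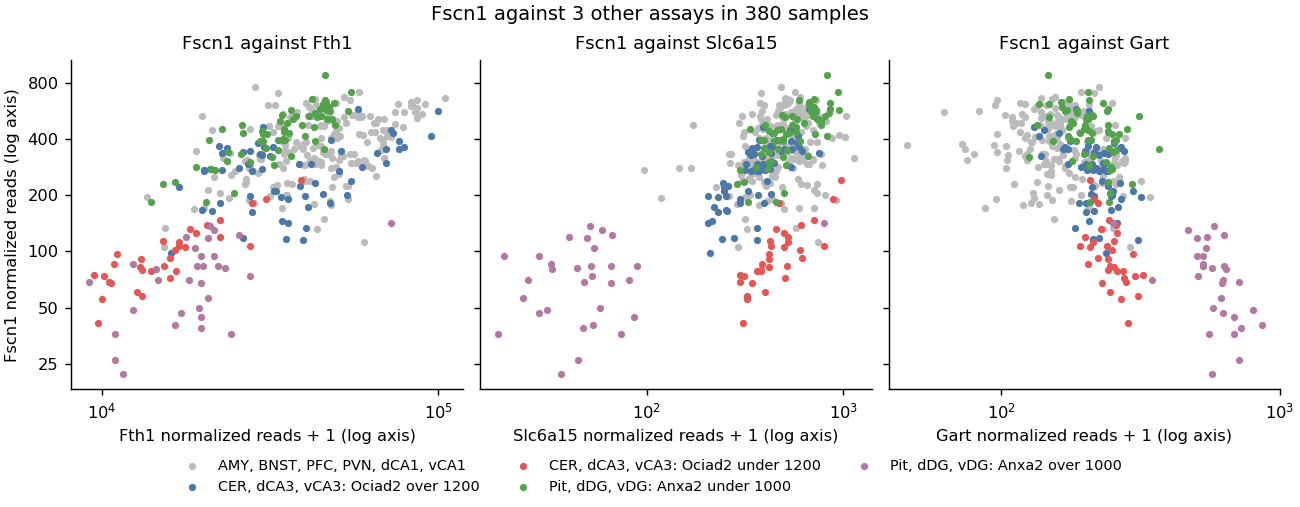
*Fscn1* against *Fth1*, *Slc6a15* and *Gart* in normalized reads on log axes for 380 samples, coloured by the region set and by the side of *Anxa2* or *Ociad2*. Samples with *Anxa2* over 1000 mostly lie at low *Slc6a15* (median 48.6) and high *Gart* (median 575), with at least 1 sample among the others. *Fth1* rises with *Fscn1* over all samples (r = 0.71), and less closely over AMY, BNST, PFC, PVN, dCA1 and vCA1 alone (r = 0.46).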

How the data were processed

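The authors filtered reads with PRINSEQ lite 0.20.4 (phred score under 20 or shorter than 25 bases), aligned them with BWA 0.7.12 to the assay manifest and divided them by DESeq2 size factors. The deposited signal is a whole multiple of 1 step in 100% of samples (tolerance 0.0001), which gave the reads per library. The labels name mm10, the same assembly as GRCm38. Reads are not independent molecules, so counting errors cover counting only.

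Values were taken as log2(value + 1) and fitted with limma 3.58.1 (R 4.3.3) over all 69 genes. Terms for status and injection (coded 0.5 and -0.5) and their interaction were fitted per region and over mouse means. Region contrasts had the mouse as a block, since the labels give the animal. After removal of group means, same-mouse samples had a median correlation of 0.0017 over genes. P-values were adjusted after Benjamini and Hochberg over the genes of each fit (for region contrasts over genes and contrasts), with a threshold of 0.1. Python 3.11.15, numpy 2.4.6, pandas 2.3.3 and matplotlib 3.10.9 were also used. The fit by label within a region and the fit between regions were first tested on simulated data, and the other fits were not.

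*Fscn1*, the lists and the thresholds on *Anxa2* and *Ociad2* were chosen with earlier results of these data known. Other genes are list members and the 3 at either end of the ranking by r with *Fscn1*, of which 1 is not reported here. *Tmem176a*, *St6galnac4*, *Psmb3* and *Cul2* were named after their values were seen.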

Additional observations from a re-analysis of the deposited data

Results flagged for a closer look

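Within the 48 groups of region and label and the 4 label groups of mouse means, 2 of 52 groups held a sample of *Fscn1* far from the rest of its group by Dixon's criterion at 95%, where chance alone gives about 1 in 20. In CER MS naive, 1 sample had 397.8 normalized reads, from 685 reads of *Fscn1*, while the other 7 lay between 79.0 and 221. In vCA3 Co inject, 1 sample had 570.9, from 670 reads, while the other 7 lay under 196. Both samples had *Ociad2* over 1200, as did 5 and 3 of the other 7 in their groups.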

How the results depend on the processing

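The 48 results were recomputed under 503 alternatives in all, which include the refits without each of the 32 mice. Of the 503, 474 kept the direction and the side of the threshold or, for counts, stayed near the main count. A further 5 fell short of the threshold or of the main count, 6 passed either of these and 18 changed sign. The status difference over the mice, 0.0020, was -0.00014 with a pseudocount of 10, -0.0042 over AMY, BNST, PFC, PVN, dCA1 and vCA1 alone, and -0.0030 without samples of *Anxa2* over 1000 or *Ociad2* under 1200. Leaving out each mouse in turn gave -0.035 to 0.041 for status, 0.00043 to 0.077 for injection and 0.013 to 0.159 for the interaction, with no call. Rescaling to the same total turned the PVN interaction from -0.045 to 0.068 and left 1 called pair of neighbours in place of 2. With the side as a covariate the vDG injection difference went from -0.12 to 0.021. With 5 principal components of the residuals, 1 region was called for each term, namely vCA3 for status (0.22, adjusted p = 0.0842) and injection (-0.34, adjusted p = 0.0223) and vDG for the interaction (1.39, adjusted p = 0.000489). Over the 6 regions that were not divided by *Anxa2* or *Ociad2*, 0% of contrasts were called (F = 0.948). Of the 6 genes at the ends of the ranking by likeness, 0 remained in these 6 regions and 1 without samples of *Anxa2* over 1000 or *Ociad2* under 1200. The cause of these changes was not tested. Without the replicate block of mice, 50% of region contrasts and 2 neighbours were called (F = 9.78), and a random block gave the same numbers of calls. Tests with edgeR and DESeq2 on recovered reads were not run. Counting error was below the spread in 48 of 48 groups, which does not test the part of depth in any difference.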
